A study of Sthenoteuthis oualaniensis with 24 samples.

Results

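The stomach of mature dwarf-form squid was set against that of immature dwarf-form squid. The squid was Sthenoteuthis oualaniensis (SA), an oceanic flying squid that occurs in a dwarf form (DF) and a medium form. DDS stands for the stomach of mature SA of the DF (maturity stages above II in the study) and DUS for the stomach of immature SA of the DF (the earlier stages), with 3 libraries each. These were 6 of the 24 RNA-Seq libraries of the series, and 6 further libraries came from the intestine of mature (DDI) and immature (DUI) SA of the DF. No agent was given and no gene was altered. All SA were caught in the wild, the mature and immature ones are different animals, and the study took both tissues from the same SAs. It describes 3 animals per group, but the labels do not tie a library number to an animal, so p-values measure the spread between these libraries, which may be partly technical. Age, sex and feeding state are not given in the labels.

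The members were all unigenes, the non-redundant transcripts of the assembly made from the 12 libraries of the DF, whose FPKM averaged 0.5 or more across the 6 stomach libraries. FPKM gives the fragments of a transcript relative to its length and to the mapped fragments of the library. Of 68627 unigenes, 33161 were tested, and 7767 of these had a mean of at least 10 FPKM. The lowest mean tested was 0.50008 FPKM and the highest mean left out was 0.49999 FPKM. At the second boundary these means were 10.0017 FPKM and 9.9975 FPKM. The files give unigene IDs without gene names or sequences. No gene, pathway or cell type marker could therefore be read, and the labelled tissue could not be checked against stomach markers.

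The stomach of a squid is a muscular, folded sac with a lining of secreted cuticle, in which captured prey is churned and broken down. Much of its digestive fluid comes from the digestive gland by way of the caecum, and the caecum and digestive gland are the main sites of absorption. In coleoid cephalopods, sexual maturation moves energy and protein into the gonad and its accessory glands late in a short life.

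The libraries differed in depth and in the number of unigenes they listed. At least 1 FPKM was reached by 19323, 22486 and 20477 unigenes in DDS_1, DDS_2 and DDS_3, against 28270, 28213 and 28171 unigenes in DUS_1, DUS_2 and DUS_3. From ratios of low values, 1 read was worth 10.7, 3.02 and 7.58 times as much in DDS_1, DDS_2 and DDS_3 as in DUS_2, against 2.43 times in DUS_1 and 0.997 times in DUS_3. This estimate assumes whole reads, although 12 to 20 values per library lay between 0 and 0.001 FPKM. The link between the groups rests on a weak peak (151 of 7763 ratios). The number of unigenes at 1 FPKM or more did not follow the estimate within DUS, where DUS_1 had the lowest depth and the highest number. At 200 FPKM or more, unigenes varied between libraries with a median coefficient of 6.07% in DDS and 1.94% in DUS. DDS_1 stood apart within its group at this level, with a median difference of 8.26% to 8.96% from the others, against 3.40% between DDS_2 and DDS_3. In addition, 5 unigenes had at least 10 FPKM in DDS_1 and DUS_1 and were listed at 0 in the other 4 stomach libraries, a pattern that no unigene had for the libraries numbered 2 or 3. Counts of calls are therefore also given without DDS_1 and DUS_1.

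More unigenes were lower than higher in DDS. Calls were made with limma on log2(FPKM + 0.5), at a Benjamini-Hochberg adjusted p below 0.05 and an absolute log2 fold change of at least 1. The added 0.5 FPKM draws the ratio of any given pair of low values towards 1. A fold change here is a difference between means of logs, however. For scarce unigenes its median lay further below 0 than that of the log2 ratio of group means, also with 0.5 FPKM added. At 1 to 2 FPKM these medians were -0.85 and -0.61, so the falls given for scarce unigenes are not a lower limit. In these bulk samples, fewer cells of a type and less RNA per cell cannot be told apart. Over all 33161 unigenes, 7794 (23.5%) were called, 1051 of them higher and 6743 lower in DDS. At an unadjusted P below 0.05 and the same size, 29% passed. By size alone, with no test, 41.9% differed at least 2-fold. Without DDS_1 and DUS_1, 6080 were called. Quantile normalization gave 4482 calls (1784 higher, 2698 lower), and a pseudocount of 5 FPKM gave 1864.

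Among unigenes of at least 10 FPKM, 1328 of 7767 (17.1%) were called. Of these, 457 were higher and 871 lower in DDS with the deposited values, 515 higher and 770 lower after quantile normalization, and 753 higher and 623 lower with median of ratios scaling, so which direction was more frequent turned with the scaling. By size alone, 19.5% differed at least 2-fold. Without DDS_1 and DUS_1 the number of calls was 1150. Of the 1328 unigenes, 1204 were also called after quantile normalization, all of them in the same direction. The overlap with the calls of median of ratios scaling, where the split turned, was not counted. The median fold was 2.64 among those higher in DDS, and 97 of the 457 (21.2%) differed at least 4-fold. Among those lower in DDS it was 2.82, and 236 of the 871 (27.1%) differed at least 4-fold.

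**Figure D1:**
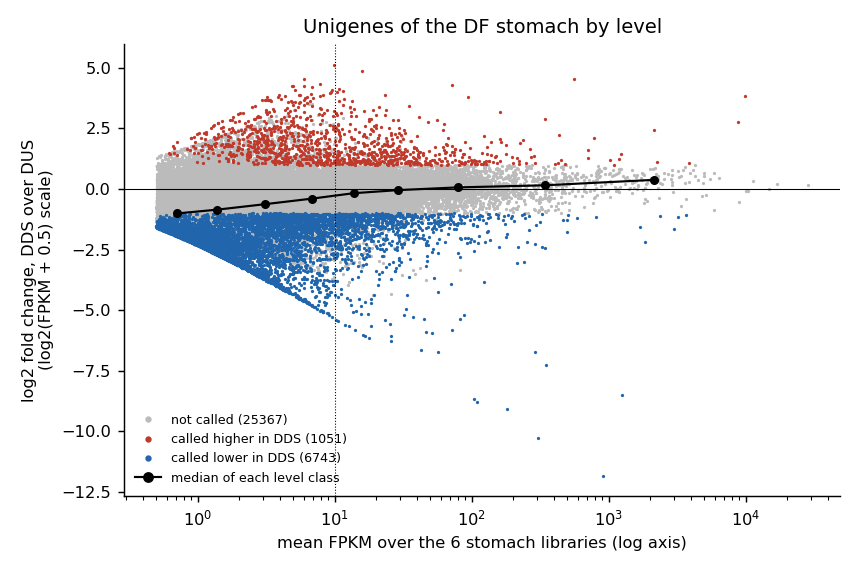
Log2 fold change of DDS over DUS, on the log2(FPKM + 0.5) scale, against the mean FPKM over the 6 stomach libraries (log axis) for the 33161 unigenes tested. Red points were called higher in DDS (1051), blue points lower (6743) and grey points not called (25367), and the black line gives the median of each level class, which is -1.01 in the lowest class and 0.38 in the highest.

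The direction of the differences moved with the level of the unigene. The median log2 fold change of DDS over DUS was -1.01 for unigenes of 0.5 to 1 FPKM, -0.63 for those of 2 to 5 FPKM and -0.17 for those of 10 to 20 FPKM. From 20 FPKM upwards it was -0.04 (20 to 50 FPKM), then 0.07 (50 to 200 FPKM), then 0.16 (200 to 1000 FPKM), and 0.38 in the highest class. Scarce unigenes were thus listed lower in DDS and the most abundant ones higher. Median of ratios scaling raised each class and kept this order, from -0.92 in the lowest class to 0.59 in the highest. Quantile normalization, which gives each library the same distribution of values, set the lowest class at 0.19, that of 1 to 2 FPKM at 0.13 and that of 2 to 5 FPKM at -0.11. From 5 FPKM the medians still increased with the level, over a smaller range, with -0.14 (5 to 10 FPKM), -0.05 (10 to 20 FPKM), 0.01 (20 to 50 FPKM), 0.03 (50 to 200 FPKM), 0.08 (200 to 1000 FPKM) and 0.08 (highest class).

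Calls followed the same order. At 0.5 to 1 FPKM, 18 of 7243 unigenes were called higher and 1898 lower in DDS, against 117 higher and 0 lower after quantile normalization. At 10 to 20 FPKM, 176 of 3169 were called higher and 431 lower, and at 200 to 1000 FPKM, 20 of 353 were called higher and 26 lower. Among the 128 unigenes of 1000 FPKM or more, 9 were called higher and 7 lower (12.5% called), while quantile normalization gave 4 higher and 8 lower, and median of ratios gave 18 higher and 4 lower. The value of 1 read and the scaling moved with these differences at low levels, and their part in the result was not tested.

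**Figure D2:**
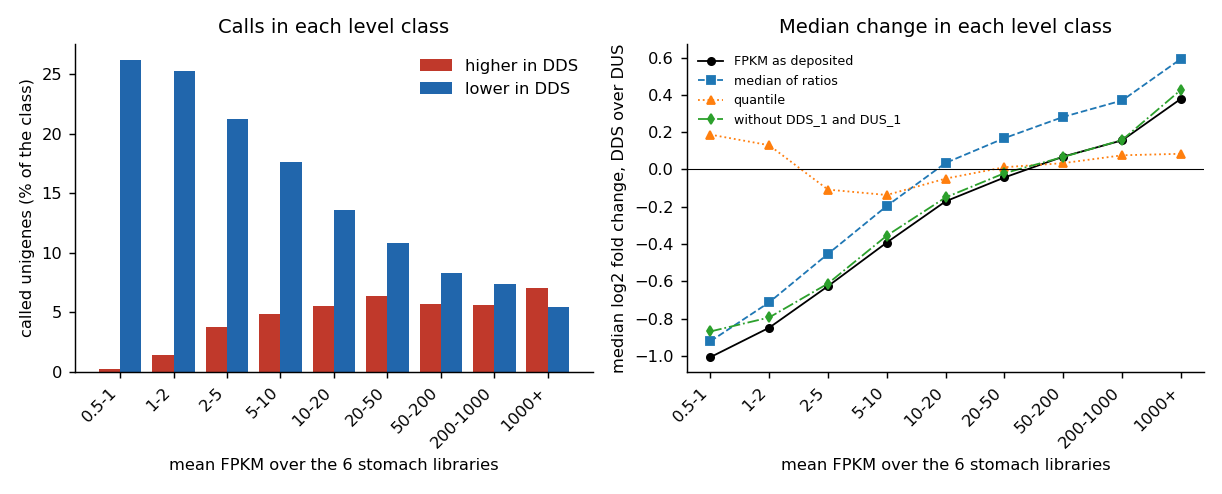
Left, the share of unigenes called higher (red) and lower (blue) in DDS in each class of mean FPKM, as percent of the class. Right, the median log2 fold change of DDS over DUS in each class with the FPKM as deposited (black), after median of ratios scaling (squares), after quantile normalization (triangles) and without DDS_1 and DUS_1 (diamonds), where quantile normalization leaves a smaller increase with the level, with -0.14 at 5 to 10 FPKM and 0.08 in the highest class.

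The same pattern was found in each library when FPKM were summed within a class. Unigenes of 1000 FPKM or more summed to 413378, 451780 and 450596 FPKM in DDS_1, DDS_2 and DDS_3, against 350522, 353667 and 354602 FPKM in DUS_1, DUS_2 and DUS_3. The groups did not overlap, and the mean of DDS was 1.24 times that of DUS. At 0.5 to 1 FPKM, the sum was 3232 ± 887 FPKM in DDS and 7212 ± 188 FPKM in DUS (SD, n = 3 libraries each), a ratio of 0.448. The ratio was 0.745 for the class of 2 to 5 FPKM, 0.937 for that of 10 to 50 FPKM and 1.03 for that of 50 to 200 FPKM. The summed FPKM of whole libraries differed as well, at 875427 to 922486 in DDS and 838485 to 840848 in DUS. As percent of that sum, the class of 50 to 200 FPKM turned, with 15.35% to 15.85% in DDS and 16.3% to 16.4% in DUS. The class of 200 to 1000 FPKM then overlapped (16.26% to 16.51% in DDS, 16.18% to 16.3% in DUS), and that of 1000 FPKM or more stayed higher in DDS (47.2% to 49.0% in DDS, 41.8% to 42.2% in DUS). The 10 most abundant unigenes took 15.9% of the summed FPKM in DDS and 13.9% in DUS, and 8 were common to both groups. Absolute amounts of RNA cannot be read from FPKM.

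**Figure D3:**
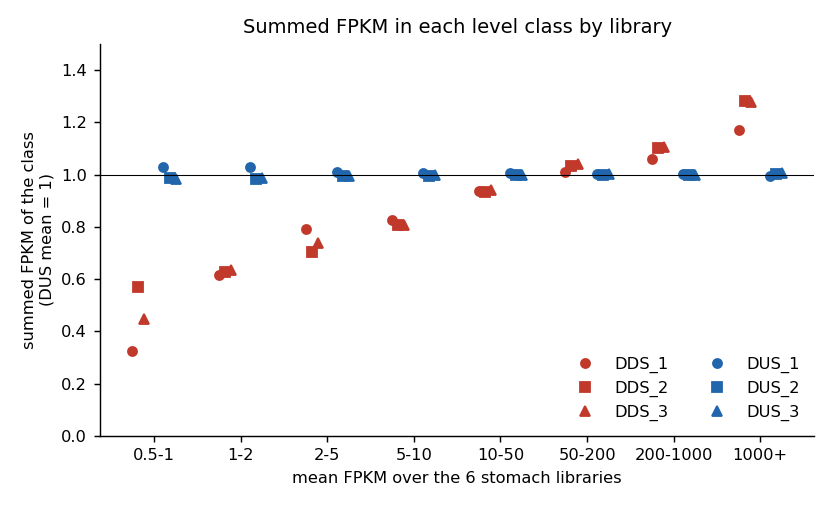
Summed FPKM of the unigenes in each class of mean FPKM, divided by the mean of DUS in that class, for the 3 libraries of DDS (red) and the 3 libraries of DUS (blue), with the library number given by the shape. With the FPKM as deposited, DDS lies below DUS in every class under 50 FPKM and above it from 50 FPKM, but as a share of each library's summed FPKM it is lower at 50 to 200 FPKM too and overlaps DUS at 200 to 1000 FPKM.

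A pair of abundant unigenes had the largest rises among those of 1000 FPKM or more. They were chosen after their values were seen. The first, the second most abundant unigene of DDS, had 17755, 18732 and 18529 FPKM in DDS, against 1312, 1278 and 1289 FPKM in DUS. This is a 14.2-fold difference, far beyond the spread within either group (log2 fold change 3.83, limma adjusted p 8.02e-08). The other, the fourth in rank in DDS, had 14226, 15953 and 16017 FPKM in DDS, against 2173, 2316 and 2288 FPKM in DUS. It was 6.82-fold higher in DDS (log2 fold change 2.77, limma adjusted p 7.73e-06), with no overlap between the groups. Together they held 3.72% of the summed FPKM of DDS and 0.423% of that of DUS.

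The next rise in this class was smaller, at 3655, 3642 and 3524 FPKM in DDS against 679, 659 and 660 FPKM in DUS (5.42-fold). All 3 of these unigenes were far lower in the intestine of mature SA than in the stomach, with means of 23.9, 24.3 and 6.50 FPKM in DDI. The largest fall in the class was at 5.53, 11.5 and 4.08 FPKM in DDS, against 2379, 2599 and 2533 FPKM in DUS (log2 fold change -8.50, limma adjusted p 9.49e-05). That unigene was 356 times more abundant in DUS, and had a mean of 1.96 FPKM in DDI. The second largest fall was at 639, 671 and 671 FPKM in DDS, against 3006, 3037 and 2996 FPKM in DUS (4.56 times higher in DUS).

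Abundant unigenes whose level in the intestine was low relative to the stomach were called at a higher share than the others. Of the 128 unigenes of 1000 FPKM or more, 21 had a mean in both DDI and DUI below 10% of their stomach mean. Of these 21, 9 were called (42.9%), 4 higher and 5 lower in DDS, with a median log2 fold change of 0.06. Of the other 107, 7 were called (6.54%), 5 higher and 2 lower, with a median of 0.39. At a smaller size, most of the 107 moved the same way, since 77 of them were higher and 14 lower in DDS at an adjusted p below 0.05 from limma. After quantile normalization these counts were 51 and 27 and the median was 0.08, and with median of ratios they were 90 and 9 with a median of 0.60. Of the 21, 4 were called higher and 6 lower after quantile normalization, and 5 higher and 4 lower with median of ratios. The split by the intestine was chosen after values were seen and was not tested. It uses the same stomach values as the calls, so a high level in DDS or DUS alone can place a unigene in the set. A low share of the stomach level does not mean absence, since 4 of the 21 had a mean above 100 FPKM in DDI or DUI.

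**Figure D4:**
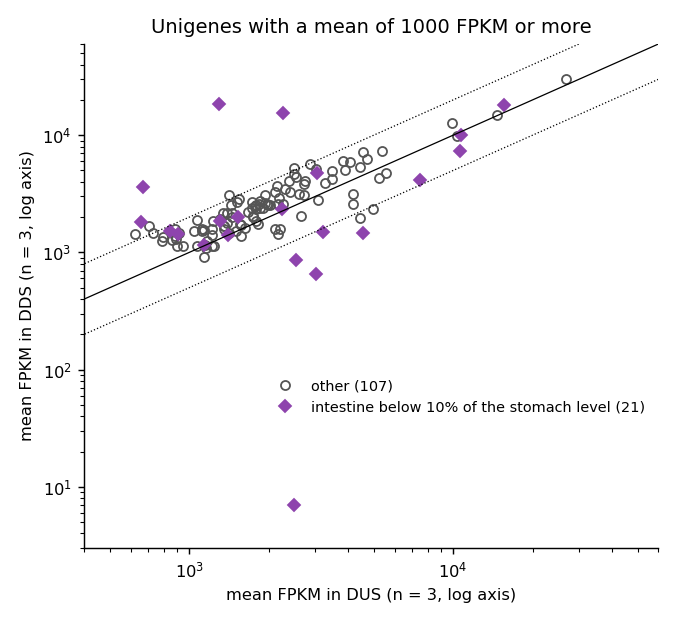
Mean FPKM in DDS against mean FPKM in DUS (n = 3 libraries each, both axes log) for the 128 unigenes with a mean of 1000 FPKM or more. Filled diamonds are the 21 unigenes with an intestinal level below 10% of their stomach level, open circles the other 107, the solid line marks equal levels and the dotted lines a 2-fold difference, and 9 of the diamonds but 7 of the circles were called.

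The same split was made with lower limits, in sets that include the 128 unigenes above. At 10 FPKM or more, 185 of the 7767 unigenes had an intestinal level below 10% of the stomach mean, and 88 of them were called (47.6%), against 1240 of the other 7582 (16.4%). At 200 FPKM or more, where 62 of 481 unigenes (12.9%) were called, 23 of 64 such unigenes were called (35.9%), against 39 of the other 417 (9.35%). These shares are a description and their differences were not tested. The stomach values enter both the split and the calls. For example, 1 called unigene in the split at 200 FPKM had means of 1067 FPKM in DDS, 45.05 FPKM in DUS and 32.97 FPKM in DDI.

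The unigenes named by rule were the largest rise and the largest fall among called unigenes of at least 10 FPKM whose groups did not overlap, and the same among those of at least 50 FPKM with at least 5 FPKM in each library. What they encode is not given in the labels, the files or the study. CL8205Contig1 had 41.6, 25.95 and 25.7 FPKM in DDS, against 0, 1.87 and 0.472 FPKM in DUS. DDS was high in each library and DUS near or at 0 (log2 fold change 4.88 ± 0.58, SE, limma adjusted p 0.00251). The size depends on the pseudocount, with 5.97 at 0.1 FPKM, 4.27 at 1 FPKM and 2.63 at 5 FPKM. At 1 FPKM it was below that of CL8113Contig1 (4.54), so its rank as the largest rise depends on this choice too. The intestine showed the same order, with 29.7, 17.7 and 31.6 FPKM in DDI, while each library of DUI listed the unigene at 0.

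CL8113Contig1 had 1051, 1073 and 1076 FPKM in DDS, against 43.7, 45 and 46.4 FPKM in DUS. It was 23.7-fold higher in DDS, with little spread in either group (log2 fold change 4.55 ± 0.04, SE, limma adjusted p 2.85e-07). In the intestine it had 35.9, 35.25 and 27.7 FPKM in DDI and was listed at 0 in each library of DUI. Both named unigenes that rose were thus present in the intestine of mature SA and listed at 0 in that of immature SA.

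CL25784Contig1 was listed at 0 in the 3 libraries of DDS, against 1762, 1812 and 1863 FPKM in DUS (limma adjusted p 8.02e-08). No fold is given, since its size is set by the pseudocount. It was also listed at 0 in the 3 libraries of DDI, against 12.6, 6.31 and 0 FPKM in DUI, so one library of DUI lacked it too. CL53027Contig1 had 6.16, 7.37 and 12.8 FPKM in DDS, against 127.5, 129 and 139.1 FPKM in DUS. It was 15 times higher in DUS (log2 fold change -3.90 ± 0.26, SE, limma adjusted p 0.000398). In the intestine it was scarce at both stages, at 1.14, 1.32 and 1.56 FPKM in DDI and 1.18, 0.602 and 2.38 FPKM in DUI, with overlapping groups.

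**Figure D5:**
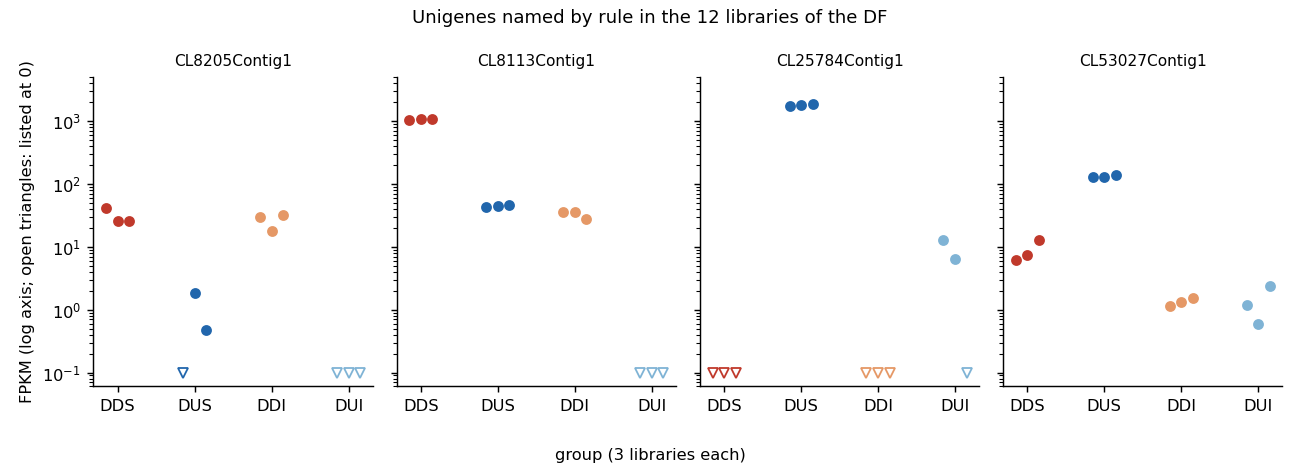
FPKM (log axis) of the 4 unigenes named by rule in each of the 12 libraries of the DF, with 3 libraries per group and open triangles at the bottom for values listed at 0. CL8205Contig1 and CL8113Contig1 are high in DDS and listed at 0 in DUI, CL25784Contig1 reaches 1762 to 1863 FPKM in DUS alone, and CL53027Contig1 is above 100 FPKM in DUS alone.

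By set limits, some unigenes of DUS were near or at 0 in DDS, and none went the other way. A value below 1 FPKM in each library of DDS with at least 10 FPKM in each library of DUS was found for 53 unigenes (median level in DUS 15.8 FPKM, range 10.5 to 1812 FPKM). Of these, 38 were listed at 0 in all 3 libraries of DDS. The reverse, at least 10 FPKM in each library of DDS and below 1 FPKM in each of DUS, was found for 0 unigenes. CL8205Contig1 missed these limits through 1 library, with 1.87 FPKM in DUS_2. These are extremes of the 23.5% of unigenes called, and a read was worth more in each library of DDS than in DUS_2 and DUS_3. The part of depth in this count was not tested.

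The strongest cases after CL25784Contig1 were well above that level. One unigene was listed at 0 in each library of DDS, against 637, 570.5 and 630.4 FPKM in DUS, and in the intestine it was at 0 in each library of DDI, against 111, 151 and 138 FPKM in DUI. Another had 0, 0.407 and 0.173 FPKM in DDS, against 362, 357 and 360.4 FPKM in DUS. It went the other way in the intestine, with 91.6, 94.9 and 97.5 FPKM in DDI and 28.2, 26.6 and 31.8 FPKM in DUI. Of the 53 unigenes, 14 showed the stomach pattern in the intestine too (below 1 FPKM in each library of DDI and at least 1 FPKM in each of DUI). In contrast, 23 had at least 1 FPKM in all 6 libraries of the intestine.

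Low values in the mature stomach alone were found for 5 unigenes. Each was below 10 FPKM in the 3 libraries of DDS and at 50 FPKM or more in the other 9 libraries of the DF. The most abundant of them had 1.19, 5.54 and 8.62 FPKM in DDS, against 666, 703 and 702 FPKM in DUS, 767 to 819 FPKM in DDI and 511 to 524 FPKM in DUI. A second had 0, 2.04 and 2.98 FPKM in DDS, against 96.0, 103 and 102.7 FPKM in DUS, and 182 to 256 FPKM in the intestine. The remaining 3 had 0.793 to 9.93 FPKM in DDS and 51.6 to 93.1 FPKM in DUS. By the same limits, 0 unigenes were low in DUS alone, 0 in DDI alone and 1 in DUI alone. With the limits turned round, 0 unigenes were high in DDS alone, against 6 in DUS, 14 in DDI and 6 in DUI. These limits pick extremes, and the differences between these counts were not tested. For scale, 1328 of the 7767 unigenes of 10 FPKM or more (17.1%) were called between DDS and DUS.

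The intestine of mature and immature SA gave the comparison in other libraries, from the same SAs according to the study. In the intestine, 1132 of 10418 unigenes of at least 10 FPKM (10.9%) were called between DDI and DUI, 731 higher and 401 lower in DDI, and at 50 FPKM or more 10.2% were called. Over all 54695 unigenes tested in the intestine, 12.2% were called, 3138 higher and 3547 lower in DDI. Of the 457 unigenes called higher in DDS, 151 (33.0%) were also called higher in DDI and 8 (1.75%) lower. Of the 871 called lower in DDS, 105 (12.1%) were called lower in DDI and 18 (2.07%) higher. Among the 7767 unigenes, 557 (7.17%) were called higher in DDI and 219 (2.82%) lower. The median log2 fold change of DDI over DUI was 0.79 for the unigenes higher in DDS, -0.29 for those lower in DDS and 0.03 for all 7767. Shared calls thus lay mainly in the same direction, and most unigenes called in the stomach were not called in the intestine.

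Of the 6802 unigenes with at least 10 FPKM in both tissues, 1006 were called in the stomach and 600 in the intestine, and 105 were called higher and 74 called lower in both. These shared unigenes were 17.8% of the stomach calls and 29.8% of the intestine calls, and 15 unigenes were called in opposite directions. Across these unigenes, which are not independent and come from tissues of the same SAs, the log2 fold changes had a Pearson correlation of 0.41.

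Whether the difference between mature and immature SA itself differed between the tissues was tested as an interaction term in limma, fitted to the 12 libraries of DDS, DUS, DDI and DUI. For 1674 of the 9239 unigenes that averaged 10 FPKM or more in these libraries (18.1%), the adjusted p was below 0.05 and the log2 fold changes of the tissues were at least 1 apart. The mature-to-immature ratio was larger in the stomach for 324 and smaller for 1350, against 399 and 940 after quantile normalization. At 50 FPKM or more, 357 of 2114 (16.9%) passed, with 132 larger and 225 smaller in the stomach. Of the unigenes lower in DDS at 10 FPKM or more, 61.5% passed the interaction, against 29.1% of those higher in DDS and 8.42% of those not called. These shares are a description, because the stomach libraries that gave the calls also enter the interaction. The fit also had no term for the animal and took the 12 libraries as independent, though both tissues came from the same SAs. CL53027Contig1 and the 2 largest rises of 1000 FPKM or more passed, and CL8205Contig1 did not (difference -0.83, limma adjusted p 0.446). The difference for CL8205Contig1 rests on the pseudocount, as each library of DUI listed it at 0.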

How the data were processed

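The study trimmed the reads, assembled 1 set of unigenes for the DF with Trinity, and the authors deposited 1 FPKM value per unigene and library. How FPKM were computed is not stated in the labels or methods read here. The methods name a count method for the study's own comparison, but the authors deposited FPKM and no read counts. Therefore limma 3.58.1 (R 4.3.3) was applied to log2(FPKM + 0.5) with an intensity trend, no covariate and 2-sided tests. The spread between libraries was taken from the 6 stomach libraries, and from all 12 libraries of the DF for the interaction. Calls were adjusted over all unigenes tested. The limma step was tested on simulated data with independent normal noise, where changes were set only in unigenes of 10 FPKM or more. That test does not cover changes of scarce unigenes or libraries from the same SAs. Relative depth was estimated in Python 3.11.15 from ratios of values of 0.02 to 2 FPKM, within 1% of a ratio of whole reads. Read counts and unigene lengths were not used, so no counting interval is given. Of the unigenes, 1262 belong to 609 clusters with more than 1 contig, whose values may share reads. Same-numbered libraries of DDS and DUS were not taken as pairs, since mature and immature SA are different animals. Stomach and intestine came from the same SAs, but the labels do not tie libraries to animals. The interaction therefore has no term for the animal and takes the 12 libraries as independent. The replicate block joins same-numbered libraries of both stages, so it does not stand for animals.

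Members, rules and splits were chosen with earlier results of these data known. Unigenes were named as the largest rise and fall at 10 FPKM or more, and at 50 FPKM or more with at least 5 FPKM in each library, without overlap of the groups. Alternatives were the pseudocount (0.1, 1 and 5 FPKM), scaling, the filter, array weights, the libraries in the fit, a replicate block, the intensity trend, summing over clusters and leaving out libraries. Libraries of the medium form were not used.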

Additional observations from a re-analysis of the deposited data

Results flagged for a closer look

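These results were singled out because the difference between mature and immature SA differed between the stomach and the intestine of the DF by the interaction test in limma. The interaction passed for 7120 of 47743 unigenes of at least 0.5 FPKM and for 1674 of 9239 unigenes of at least 10 FPKM. The fit took libraries of the same SAs as independent. No test for a single outlying library was run, since the groups hold 3 libraries.

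Among single unigenes, the difference of stomach minus intestine on the log2 scale was 3.83 for the second most abundant unigene of DDS and 2.70 for the fourth. Both rose in the stomach. In the intestine their means were 23.9 and 24.3 FPKM in DDI, against 23.9 and 23.0 FPKM in DUI. It was -3.97 for CL53027Contig1, which fell in the stomach and had overlapping groups in the intestine. It was -9.0 for CL25784Contig1 and -1.50 for CL8113Contig1. These last values are set by the pseudocount, because CL25784Contig1 was listed at 0 in DDS and DDI and CL8113Contig1 in DUI. For CL8113Contig1 the sign does not mean a fall, as it was higher in mature SA in both tissues.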

How the results depend on the processing

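Over all unigenes tested, the count of 7794 calls became 1864 with a pseudocount of 5 FPKM (484 higher, 1380 lower in DDS), 4482 after quantile normalization (39.8% higher in DDS, against 13.5% with the deposited values) and 4798 with a replicate block. Median of ratios gave 1499 higher and 5684 lower. The interaction over all unigenes had 11130 at an unadjusted P. It had 2242 larger and 2540 smaller ratios in the stomach after quantile normalization and, at 10 FPKM or more, 596 and 924 with median of ratios. The median log2 fold change at 10 FPKM or more was -0.05, against 0.0013 after quantile normalization and 0.16 with median of ratios, and by size alone median of ratios gave 909 higher and 684 lower there. Leaving out 1 library at a time gave 5625 to 8740 calls over all unigenes and 1139 to 1368 at 10 FPKM or more. It gave 1523 to 1630 by size alone at 10 FPKM or more, 5772 to 8030 and 1523 to 1785 for the interaction (all unigenes, and 10 FPKM or more), and -0.054 to -0.032 for the median. The replicate block gave 1278 calls at 10 FPKM or more, and 6533 and 1647 for the interaction. Deviations of same-numbered stomach libraries had correlations of 0.008 to 0.035 across all unigenes tested and of 0.125, 0.025 and 0.010 (numbers 1, 2 and 3) at 10 FPKM or more, where DDS_3 and DUS_2 also had 0.125. As mature and immature SA are different animals, the numbers were not taken as pairs. Without the libraries numbered 1, chosen after seeing the data, calls were 6080 and 1150, and those of the interaction 5011 and 1326. The 4 named unigenes and the 3 unigenes of 1000 FPKM or more given with a p kept their direction and their call in each alternative for which their values were recorded. These were not recorded with other filters, without the intensity trend, after summing over clusters or without the libraries numbered 1.

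The spread rests on 3 libraries per group. At low levels few reads stand behind a value of DDS, and differences there cannot be told apart from uneven depth.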

Other observations

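A few unigenes followed the library number and not the stage. CL23997Contig1, chosen after its values were seen, had 1202 FPKM in DDS_1, 1558 FPKM in DUS_1 and 666 FPKM in DDI_1, and was listed at 0 in the other 9 libraries of the DF, DUI_1 included. In all, 4 unigenes had at least 10 FPKM in these 3 libraries and were at 0 elsewhere, the second with 177, 197 and 75.1 FPKM. With the deposited values such unigenes do not separate DDS from DUS. What the libraries numbered 1 share is not given in the labels.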
